A study of Mus musculus with 6 samples.

Results

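The islands of mSin3A described here lie around 7 genes of the T cell receptor complex and its first signalling steps: Cd3g, Cd3d, Cd3e, Lck, Zap70, Thy1 and Ptprc. Members were taken by position. Every island, a broad stretch of enriched reads, was kept if it overlapped 1 of 5 windows of the mouse build mm9, which were chr9:44767000-44828000 for Cd3g, Cd3d and Cd3e together, chr4:129224000-129261000 for Lck, chr1:36808000-36850000 for Zap70, chr9:43841000-43867000 for Thy1 and chr1:139950000-140082000 for Ptprc. The windows held 14 of 15954 and 14 of 13556 islands in the deficient libraries of conditions 1 and 2, and 11 of 13397 and 9 of 11151 islands in the WT libraries. Overlapping or adjoining islands of the 4 lists were joined into merged regions, of which 11 among 23510 overlapped a window.

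Chromatin bound by mSin3A was immunoprecipitated and sequenced (ChIP-seq) from sorted CD8+ spleen T cells high in TCRbeta, the beta chain of the receptor. The cells came from mice of genotype Tcf1-/-Lef1-/-, in which Cre recombinase driven by Cd4 sequences removed both transcription factors in the T lineage, or from WT control mice. For each genotype there was 1 ChIP library in condition 1, 1 in condition 2 and 1 input library; the labels do not define the conditions or the number, age or sex of the animals, and the inputs were not analysed here. The conditions were not treated as replicates, so each group is 1 library, no test between groups was made, and the ratio between conditions within a genotype is the only other measure of how far a pair of libraries can differ.

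The T cell receptor cannot signal by itself. It is carried by the invariant CD3 chains gamma, delta and epsilon, encoded by the neighbouring genes Cd3g, Cd3d and Cd3e, whose cytoplasmic tails hold tyrosine motifs that the Src-family kinase Lck phosphorylates. Zap70, a kinase of the Syk family, docks on the phosphorylated motifs and passes the signal on. Ptprc encodes CD45, the membrane phosphatase that keeps Lck ready for activation, and Thy1 encodes a lipid-anchored surface glycoprotein found on mouse T cells. mSin3A is the scaffold of a co-repressor complex that carries histone deacetylases, and its islands mark where this complex was recovered, not how strongly a gene was transcribed. The labelled cell type could therefore not be checked against marker expression, nor the deletion against the deleted genes.

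Tcf1 and Lef1 bind DNA through an HMG box that recognises sequences around CTTTGA or CTTTGT, so the 250 bases before the start of the member genes are the stretch in which their letters can be looked up. RefSeq promoters of build GRCm38.p6 were matched by symbol for 6 of the 7 genes, with 10 starts in all. Those of Cd3g and Cd3d, which neighbour each other on opposite strands, of both Lck starts and of the outermost Zap70 start are shown 5′ to 3′ on the strand of the gene. The starts of Cd3e and Ptprc and the other Zap70 starts were searched as well but are not shown. Capitals mark CTTTGA or CTTTGT on either strand.
Cd3g, chr9:44980432-44980681, minus strand: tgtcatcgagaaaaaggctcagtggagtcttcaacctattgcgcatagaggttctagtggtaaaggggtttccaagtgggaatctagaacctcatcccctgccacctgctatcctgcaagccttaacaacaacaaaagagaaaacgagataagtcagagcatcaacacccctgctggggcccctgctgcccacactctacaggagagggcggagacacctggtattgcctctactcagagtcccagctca
Cd3d, chr9:44981536-44981785, plus strand: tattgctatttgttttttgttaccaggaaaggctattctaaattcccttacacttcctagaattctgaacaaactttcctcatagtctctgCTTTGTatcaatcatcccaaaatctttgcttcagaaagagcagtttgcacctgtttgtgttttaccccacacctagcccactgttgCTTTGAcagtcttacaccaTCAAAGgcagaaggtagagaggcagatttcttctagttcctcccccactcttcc
Lck outer start, chr4:129573642-129573891, minus strand: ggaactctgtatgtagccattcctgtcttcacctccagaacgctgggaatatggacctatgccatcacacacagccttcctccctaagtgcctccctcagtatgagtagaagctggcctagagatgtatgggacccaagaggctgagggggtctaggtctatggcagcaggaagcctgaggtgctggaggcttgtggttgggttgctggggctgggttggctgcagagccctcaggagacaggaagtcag
Lck inner start, chr4:129558373-129558622, minus strand: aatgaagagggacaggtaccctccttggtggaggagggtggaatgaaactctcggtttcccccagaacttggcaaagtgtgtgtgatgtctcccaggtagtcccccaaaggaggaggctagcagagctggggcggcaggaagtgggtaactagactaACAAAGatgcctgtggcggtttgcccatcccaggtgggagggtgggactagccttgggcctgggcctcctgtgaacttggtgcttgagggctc
Zap70 outermost start, chr1:36761548-36761797, plus strand: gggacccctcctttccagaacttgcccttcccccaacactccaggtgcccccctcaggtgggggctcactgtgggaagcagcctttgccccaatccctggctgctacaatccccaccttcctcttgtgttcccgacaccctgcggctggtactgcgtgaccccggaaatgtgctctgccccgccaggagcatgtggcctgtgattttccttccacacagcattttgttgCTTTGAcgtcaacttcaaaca
The Cd3d sequence held 3 matches, which began 159, 73 and 54 bases before the start, whereas the Cd3g sequence held none. The inner Lck start had CTTTGT on the opposite strand, 93 bases before the start, and the outer Lck start had no match. The outermost Zap70 start had CTTTGA 21 bases before the start. Among the starts not shown, those of Cd3e and the second of Zap70 had no match, and the third of Zap70 had 1. The first Ptprc start had 1 match and the second none. Of the 10 member sequences 5 held at least 1 match, against 27.6% of the 32851 promoter stretches of the same length, and more than 1 match was found in 5.15% of all such stretches. The 10 sequences are starts of 6 genes and those of Ptprc overlap, so they are not independent and no test was made. The stretches were not matched for base composition. Overlapping matches would have been counted separately. These coordinates are of another build than the islands, so it was not determined whether an island covers any of these stretches, and a match of letters is not a bound site.

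Every one of the 5 windows held an island in every library. The deposited value of an island is a whole number read here as its ChIP reads, unscaled for depth or width. Island reads summed to between 1792952 and 1917097 per library, which is the only measure of depth at hand. Of the 48 member islands, 35 held more reads than the median island of their own list, 34 were wider and 26 were denser in reads per kb. Member islands were thus often broad, with a median width of 5.5 and 5.0 kb in the deficient libraries and 5.8 and 8.0 kb in the WT libraries of conditions 1 and 2. The medians of the whole lists were 3.2 and 3.8 kb in the deficient and 3.6 and 4.2 kb in the WT libraries. In reads per kb their median density was 27.4 and 25.2 for deficient cells and 30.4 and 30.1 for WT cells, near the medians of the whole lists, 27.2 and 28.1 for deficient and 26.5 and 28.2 for WT cells.

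**Figure D1:**
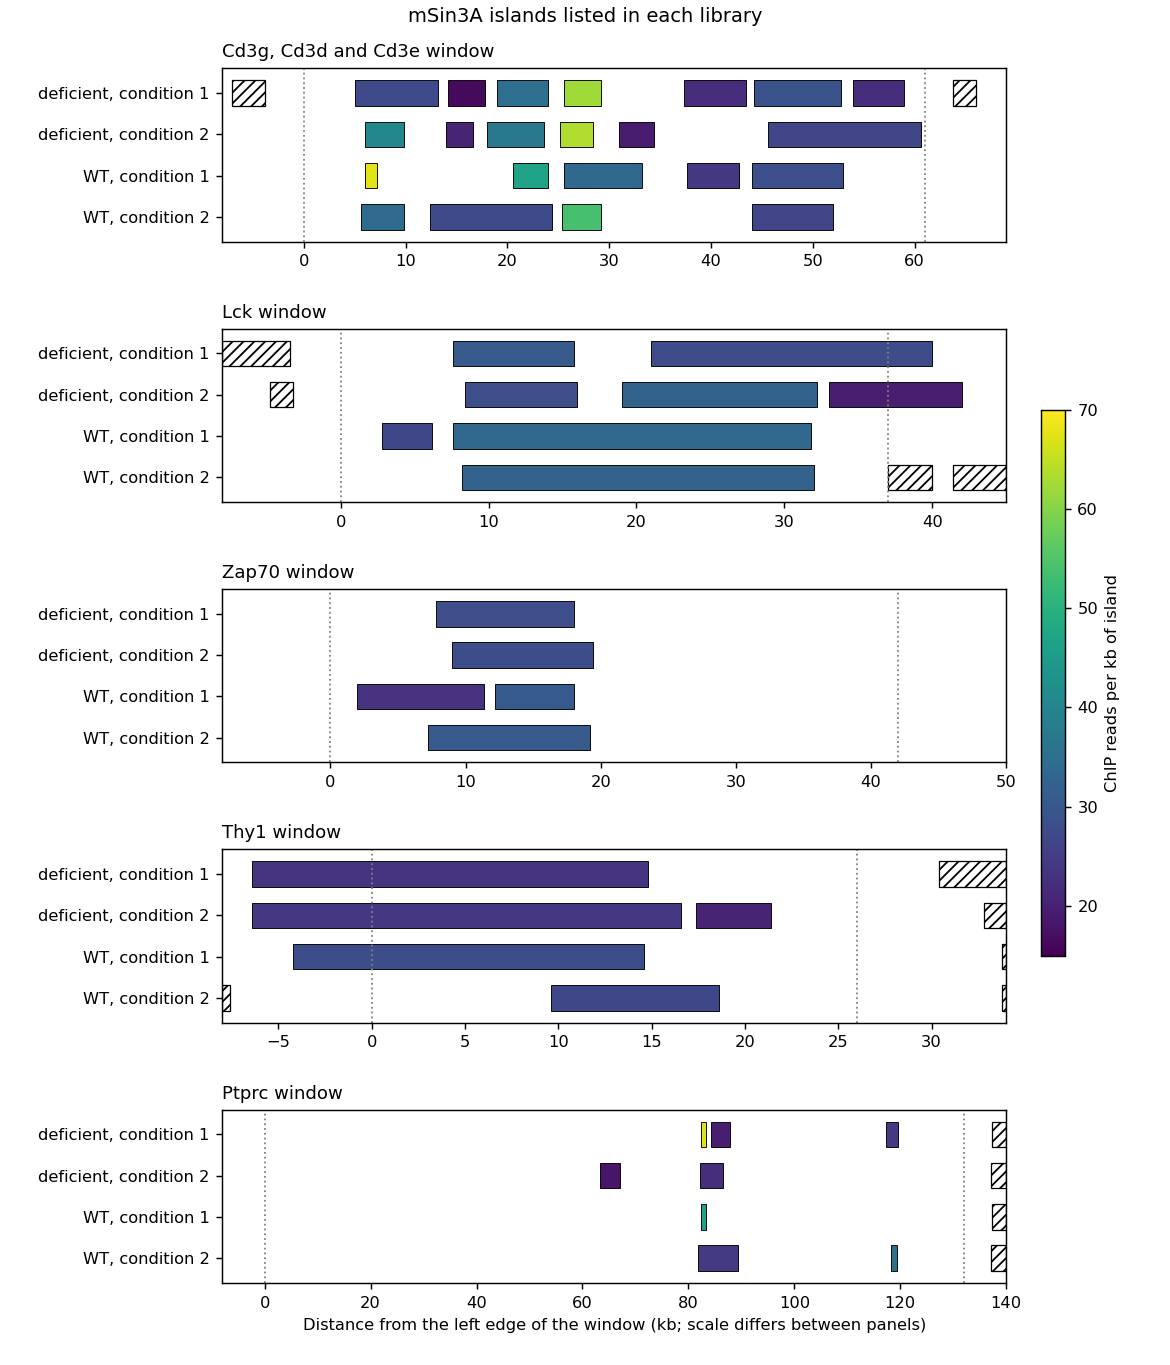
Islands of the 5 windows by library. The x axis is the distance in kb from the left edge of the window, dotted lines are the window's edges, each filled bar is a member island coloured by its reads per kb, and hatched bars are islands outside the window, clipped at the edge of the panel. The Lck locus is covered by 1 long island of 24.2 or 23.8 kb in WT and by separate islands in deficient cells, and the Ptprc window is mostly empty.

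Of the 11 merged regions, 7 were listed in all 4 libraries, against 24.0% of all regions. None was listed in both deficient libraries and no WT library (8.98% of all regions), and none in both WT libraries and no deficient library (2.91%). Another 2 were listed in 1 deficient and 1 WT library (5.10%), and 2 in 1 library alone (48.1%). With 11 neighbouring regions in 5 windows these shares describe the loci and carry no test.

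The Cd3g, Cd3d and Cd3e window had more island reads without Tcf1 and Lef1 in both conditions. It held 1174 and 1083 reads in the deficient libraries of conditions 1 and 2 (exact Poisson 95% intervals 1108 to 1243 and 1019 to 1149), against 873 and 884 reads in the WT libraries (816 to 933 and 827 to 944). Both deficient values lay above both WT values, and this was so at no other locus. Read ratios are given as log2 of deficient over WT, centred on the median over the 5637 regions listed in all 4 libraries, which was -0.06 in condition 1 and -0.09 in condition 2. The Cd3 ratio was 0.49 (exact 95% interval 0.36 to 0.62, counting error only) and 0.38 (0.25 to 0.51). It compares sums over islands called separately in each library, so it moves with how much of the window was called, and reads outside islands are not known. Between conditions it changed by -0.19 in deficient and -0.10 in WT cells, less than between the genotypes.

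The added reads came with added called length. Islands covered 40.0 and 33.6 kb of the Cd3 window in the deficient libraries and 26.4 and 28.0 kb in the WT libraries, whereas reads per kb were 29.4 and 32.2 in deficient and 33.1 and 31.6 in WT cells. The centred log2 ratio of density was -0.18 in condition 1 and 0.04 in condition 2. More of the Cd3 window was called in deficient cells, at a density that was lower in condition 1 and nearly the same in condition 2. Called length is not centred, and the deficient lists held more islands, though of a narrower median width. Genome-wide, 6.28% of called bases were listed in both deficient libraries and no WT library, against 3.90% in both WT libraries and no deficient library. With the 50% of islands that had most reads in each library, the log2 ratio of called length in condition 2 was -0.02, against 0.26 with all islands.

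The reads of the Cd3 window were spread over 4 merged regions, which differed in how they behaved. The region chr9:44811001-44827599, nearest to the right edge, held 361 and 399 reads in the deficient libraries and 255 and 210 reads in the WT libraries. Its ratios of 0.56 (0.33 to 0.80) and 1.01 (0.77 to 1.26) made it the only member region whose reads were higher without Tcf1 and Lef1 in each of the conditions, a pattern found in 26.9% of all regions listed in the 4 libraries. Here the islands reached farther to the right: 5.0 kb, chr9:44821001-44825999, were listed in both deficient libraries and in neither WT library. Density was almost level, at 26.5 and 26.6 reads per kb in deficient and 28.3 and 26.3 reads per kb in WT cells.

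The leftmost region, chr9:44772001-44791399, had the most reads of the Cd3 window in 3 of the 4 libraries, with 457 and 415 reads in the deficient libraries and 240 and 470 reads in the WT libraries. Its low value belonged to the WT library of condition 1 alone, where the islands covered 4.6 kb, against 16.2 kb in the WT library of condition 2 and 16.8 and 12.0 kb in the deficient libraries. The ratio was accordingly 0.99 (0.76 to 1.22) in condition 1 and -0.09 (-0.29 to 0.10) in condition 2. The WT libraries differed from each other by 0.86 on the same scale, about as much as the genotypes did in condition 1.

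Between these lay a dense mSin3A site. In 3 of the 4 libraries an island of ordinary width began at chr9:44792201 to 44792601. It had 62.2 and 63.5 reads per kb over 3.6 and 3.2 kb in the deficient libraries. In the WT library of condition 2 it had 53.7 reads per kb over 3.8 kb. These densities exceeded 97.7%, 97.9% and 95.1% of the islands of their own lists, and the widths exceeded 55.1%, 36.6% and 42.9%. In the WT library of condition 1 the island ran on for 7.6 kb and averaged 33.4 reads per kb, and the densest island of the window lay in the leftmost region instead, at chr9:44773001-44774199 with 67.6 reads per kb. Reads of the merged region, chr9:44792201-44801399, were 224 and 269 in deficient and 254 and 204 in WT cells. Its ratios were -0.12 (-0.39 to 0.14) and 0.48 (0.22 to 0.75), so its direction was not shared by the conditions. The 269 reads include a separate, sparser island, chr9:44798001-44801399, with 66 reads at 19.4 reads per kb. The dense island alone held 203 reads in the deficient library of condition 2, against 204 in the WT library. The last region, chr9:44804401-44810399, was listed in condition 1 only, with 132 reads in the deficient and 124 reads in the WT library. Its reads in condition 2 are not known.

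**Figure D2:**
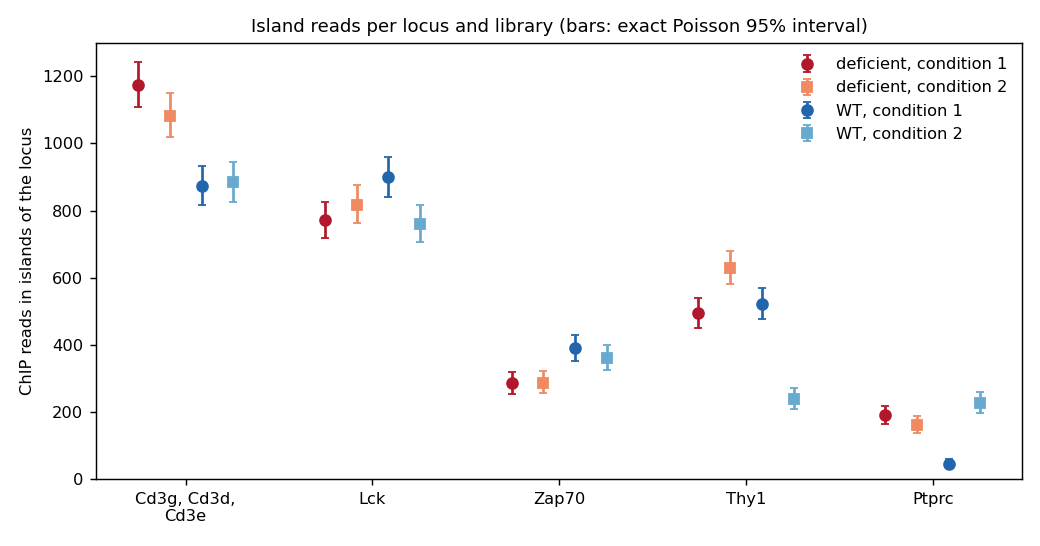
ChIP reads in the islands of each locus (y axis) for the 4 libraries, with exact Poisson 95% intervals as bars. The deficient libraries, at 1174 and 1083 reads, lie above the WT libraries, at 873 and 884 reads, at the Cd3 locus and below them at Zap70, while at Thy1 and Ptprc 1 WT library stands apart.

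Lck had a longer called stretch than Zap70, the other kinase gene, and this stretch was divided differently in the genotypes while its reads overlapped between them. Reads of the islands that overlap the window, counted in full, were 771 and 817 in the deficient libraries and 899 and 761 in the WT libraries. The deficient values lay inside the WT range. In WT cells the body of the locus was 1 unbroken island, 24.2 kb with 808 reads in condition 1 and 23.8 kb with 761 reads in condition 2, wider than 99.4% and 99.1% of the islands of those lists. In deficient cells it was broken: an island of 8.2 kb with 248 reads was followed by another of 19 kb with 523 reads in condition 1, and islands of 7.6, 13.2 and 9.0 kb with 213, 427 and 177 reads followed each other in condition 2. The gap common to both deficient libraries and covered in both WT libraries was 3.0 kb long, chr4:129240000-129243000. A gap in a list means that the stretch did not join an island; its reads are not known.

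At the right end of the Lck window the deficient islands extended beyond those of WT cells. There 4.0 kb up to the window's edge, chr4:129257001-129261000, were listed in both deficient libraries and in neither WT library. This limit is partly that of the window, since in the WT library of condition 2 an island of 3.0 kb with 105 reads began at 129261001, directly outside it, and another with 89 reads at 129265401. The read ratio depends on these. Counted in full over the islands that overlap the window, it was -0.16 (-0.30 to -0.02) in condition 1 and 0.19 (0.04 to 0.33) in condition 2. These sums include deficient reads beyond the edge, since the last deficient islands run on to 129263999 and 129265999. Over the whole merged region that overlaps the window, chr4:129231601-129270399, the ratio was -0.01 (-0.15 to 0.14) in condition 1, from 771 against 808 reads. In condition 2 it was -0.14, from 817 against 955 reads. With the islands wholly inside the window alone it was -1.80 in condition 1 and -0.16 in condition 2. In density over the islands that overlap the window, counted in full, deficient cells were lower in both conditions. They had 28.3 and 27.4 reads per kb against 32.6 and 32.0 reads per kb in WT cells. The centred log2 ratios were -0.21 (-0.35 to -0.07) and -0.22 (-0.36 to -0.07). These too depend on the edge. Over whole merged regions the density ratios were -0.21 in condition 1 and -0.13 in condition 2. With islands wholly inside the window they were -0.11 and -0.05. A small island of 91 reads, chr4:129226801-129230199, was listed in the WT library of condition 1 alone.

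Counted over the islands that overlap each window, Zap70 was the locus with fewer reads in deficient cells in both conditions. The whole merged Lck region, which reaches beyond its window, was nearly level in condition 1, at -0.01 (-0.15 to 0.14). In condition 2 it was at -0.14 (-0.28 to 0.00). At Zap70 a single region, chr1:36810001-36827399, was listed in all 4 libraries. It held 286 and 288 reads in the deficient libraries and 390 and 361 reads in the WT libraries. The deficient values were nearly equal, and both lay below both WT values. The ratios were -0.39 (-0.61 to -0.16) and -0.24 (-0.47 to -0.01), again of sums over separately called islands, and fewer reads in both conditions were found in 26.9% of all regions listed in the 4 libraries. The WT libraries differed from each other by -0.22 (-0.44 to -0.01), a size close to that of the genotype ratio in condition 2.

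As at the Cd3 genes, the Zap70 reads moved with called length, here in the opposite direction. Islands covered 10.2 and 10.4 kb in the deficient libraries and 15.2 and 12.0 kb in the WT libraries. Density was 28.0 and 27.7 reads per kb in deficient and 25.7 and 30.1 reads per kb in WT cells, with centred ratios of 0.12 (-0.10 to 0.35) and -0.11 (-0.34 to 0.11) that differ in sign. The bases listed in both WT libraries and no deficient library came to 0.6 kb, at the left end, and 8.2 kb were listed in all 4 libraries.

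**Figure D3:**
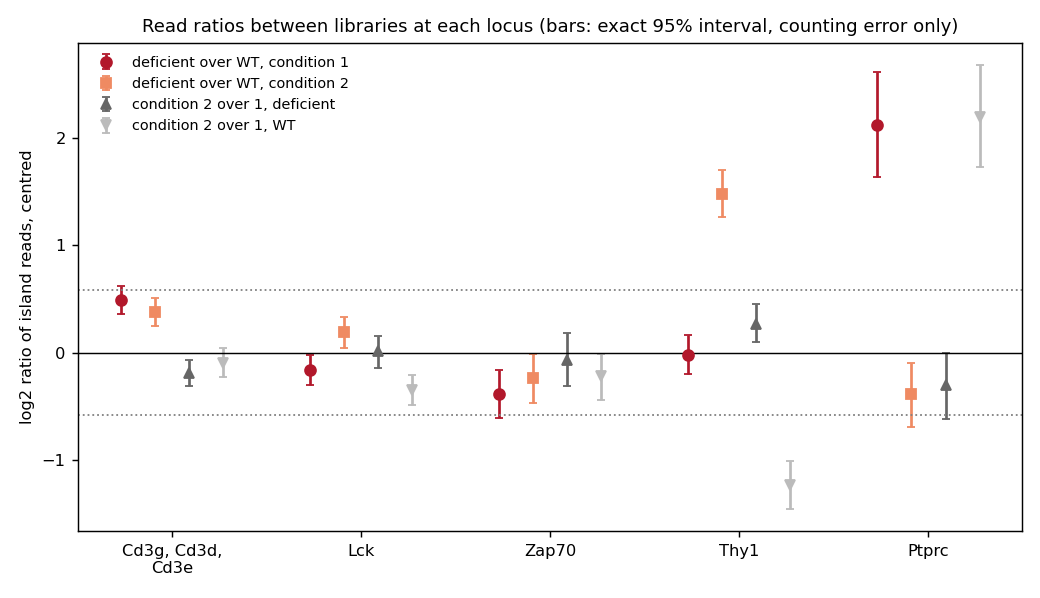
Centred log2 ratios of island reads (y axis) at each locus for deficient over WT in each condition and for condition 2 over condition 1 in each genotype, with exact 95% intervals that cover counting error only; dotted lines mark 1.5-fold. The genotype ratios of the Cd3 locus (0.49 and 0.38) and of Zap70 (-0.39 and -0.24) keep their sign, whereas those of Lck, Thy1 and Ptprc change it, and the largest condition ratios are the WT values at Thy1 (-1.23) and Ptprc (2.19).

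At the surface protein genes, Thy1 and Ptprc, 1 WT library stood apart from the other 3 libraries. Thy1 had a broad island, listed over 21.2 and 23.0 kb in the deficient libraries and 18.8 kb in the WT library of condition 1, wider than 99.6%, 99.4% and 98.6% of the islands of their lists. In the WT library of condition 2 the island was 9.0 kb. Reads of the locus were 494 and 629 in the deficient libraries and 522 and 240 in the WT libraries. The libraries other than WT in condition 2 thus lay between 494 and 629 reads. The genotype ratio was -0.02 (-0.20 to 0.16) in condition 1 and 1.48 (1.26 to 1.70) in condition 2, and the ratio of the conditions within WT was -1.23 (-1.46 to -1.01), against 0.27 (0.10 to 0.45) within deficient cells.

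The left part of the Thy1 island lies outside the window, which 3 islands cross, and outside it the WT library of condition 2 had its nearest island at chr9:43830001-43833399 with 102 reads. The direction in condition 2 rests on these crossing islands: with islands wholly inside the window alone the ratio turned to -1.46 in reads and -1.17 in called length. Density at Thy1 was lower in deficient cells, at 23.3 reads per kb in both conditions, against 27.8 and 26.7 reads per kb in WT cells. The centred ratios of density were -0.26 (-0.44 to -0.08) and -0.19 (-0.41 to 0.03), the second of which includes no difference within counting error.

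Ptprc had the fewest island reads of the 5 loci in every library. In a window of 132 kb the islands covered 6.8 and 8.0 kb in the deficient libraries and 0.999 and 8.8 kb in the WT libraries. Reads were 191 and 163 in deficient and 46 and 227 in WT cells, so the lowest and the highest value both belonged to WT. The ratio was 2.12 (1.64 to 2.61) in condition 1 and -0.39 (-0.69 to -0.10) in condition 2, and the WT libraries differed from each other by 2.19 (1.73 to 2.68). Density was 28.1 and 20.4 reads per kb in deficient and 46.0 and 25.8 reads per kb in WT cells, and its centred ratios of -0.72 (-1.19 to -0.22) and -0.33 (-0.63 to -0.04) were below 0 in both conditions. The genotypes overlapped in density, and the WT libraries differed from each other by -0.85 (-1.31 to -0.36). Thus, over the locus, the reads had opposite signs in the conditions while the density had 1 sign. The locus values in condition 2 include islands called in 1 genotype only, at 18.1 reads per kb in deficient and 35.0 reads per kb in WT cells. At the Ptprc region listed in all 4 libraries the centred density ratios were -0.62 in condition 1 and -0.12 in condition 2.

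The Ptprc site found in every library was a compact, dense island in condition 1 only. The 999 bp of chr1:140032401-140033399 were listed in all 4 libraries, and formed an island of their own with 67 reads, or 67.1 reads per kb, in the deficient library of condition 1 and with 46 reads, or 46.0 reads per kb, in the WT library of condition 1. These densities exceeded 98.4% and 90.4% of the islands of those lists, although the islands were narrower than nearly all others. In reads they exceeded only 32.7% and 13.4% of those islands. The deficient library of condition 1 listed a further island of 3.6 kb with 71 reads, or 19.7 reads per kb, to the right of this site. In condition 2 the island around this site was 4.4 kb with 98 reads in deficient and 7.6 kb with 185 reads in WT cells. Its density there was 22.3 and 24.3 reads per kb, above 24.2% and 33.1% of the islands of those lists. A weak island at chr1:140067401-140069599 was listed in the deficient library of condition 1, with 53 reads, and in the WT library of condition 2, with 42 reads, and an island of 65 reads at chr1:140013401-140016999 in the deficient library of condition 2 alone.

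Set against a rule of 1.5-fold, no member region differed in the same direction in both conditions. In condition 1, 2 of the 7 regions listed in all 4 libraries passed the fold with more reads in deficient cells, the leftmost Cd3 region and the Ptprc region, where 8.52% of all such regions did. In condition 2, 2 of 7 did, the rightmost Cd3 region and Thy1, against 8.60% overall. At least 1.5-fold fewer reads were found at 0 of 7 in condition 1 (9.08% overall) and at 1 of 7, Ptprc, in condition 2 (10.2% overall). In both conditions together the counts were 0 of 7 in either direction, against 1.49% of regions higher and 2.02% lower. The sign differed between conditions for 4 of the 7, against 46.1% overall. Per kb of called length the counts differed. In condition 1, 1 of 7 was past the fold higher in deficient cells, the Cd3 region starting at 44792201 (7.33% overall), and 2 were past it lower (6.65% overall). These 2, the leftmost Cd3 region at -0.95 and the Ptprc region at -0.62, are the regions with more reads in the same condition. In condition 2 the counts per kb were 0 higher (7.10% overall) and 0 lower (6.63% overall), and 0 of 7 passed the fold in both conditions in 1 direction, against 1.44% overall.

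Between conditions, 0 of the 7 regions differed by 1.5-fold in deficient cells (14.2% overall) and 3 did in WT cells, the leftmost Cd3 region, Thy1 and Ptprc (17.6% overall). The regions at which a condition showed a 1.5-fold genotype difference were these 3 and the rightmost Cd3 region. Of these 4, only the rightmost Cd3 region had WT values that lay on the same side of both deficient values.

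Base by base, the loci differed in how much of their called length was common ground. Of the bases called by any library within the windows, 33.6% were listed in all 4 libraries, against 16.4% genome-wide. The share was 55.5% at Lck, 47.1% at Zap70, 26.2% at the Cd3 genes, 23.4% at Thy1 and 7.46% at Ptprc. Bases listed in both deficient libraries and no WT library made up 6.75% (6.28% genome-wide) and came to 9.2 kb, of which 5.0 kb lay at the right end of the Cd3 window and the rest at the right end of the Lck window. Bases listed in both WT libraries and no deficient library made up 2.79% (3.90% genome-wide) and came to 3.8 kb, of which 3.0 kb were the gap within Lck. Bases listed in 1 deficient and 1 WT library made up 14.4% (9.92% genome-wide), and those listed in 1 library alone 22.8% (50.3% genome-wide). Within the Thy1 and Ptprc windows no base was listed in both libraries of 1 genotype and in neither of the other. Left of the Thy1 window bases were not counted. There both deficient islands began at 43834601 and the WT island of condition 1 at 43836801. The WT library of condition 2 listed nothing between 43833399 and 43850601. The stretch between the deficient and the WT start was thus listed in both deficient libraries and in neither WT library.

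**Figure D4:**
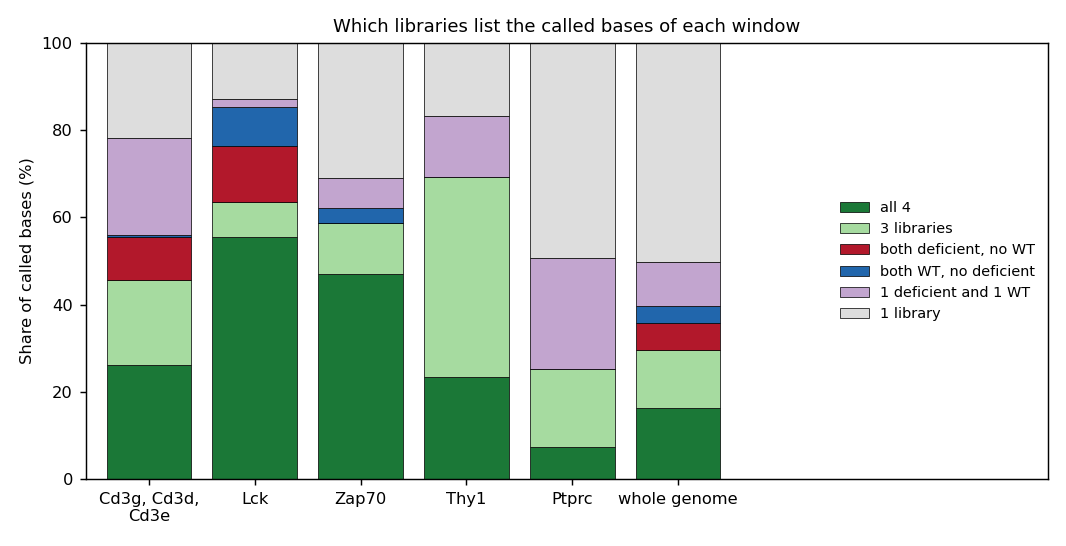
Share of called bases in each window (y axis, percent) by the libraries that list them, and the same for all called bases of the genome. Bases common to all 4 libraries make up 55.5% at Lck and 7.46% at Ptprc, and bases specific to both libraries of 1 genotype are found at the Cd3 genes, Lck and Zap70.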

How the data were processed

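The authors deposited 1 list of islands per ChIP library, and each holds chromosome, start, end and a whole number per island with no header. That number was read as a raw read count per island, as SICER lists give it; the deposited counts are not normalized. Per the submitters' processing notes, FastQC, Bowtie2 2.2.5 and SICER 1.1 were used on mm9; its settings and the role of the inputs were not given in the sources used here. Coordinates are 1-based at the start, with ends as deposited, and lengths were taken as end minus start before that shift.

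Islands overlapping a window by at least 1 bp were summed per library, in full where they cross its edge. Read ratios have exact Clopper-Pearson 95% intervals. PCR duplicates may be among the reads, so intervals cover counting error only. With 1 library per group no p-value is given, and a fold of 1.5 stands in for a test. All 7 genes were described; regions named are those with most reads per locus, those past 1.5-fold in both conditions and those listed for 1 genotype only. The remaining Cd3, Lck and Ptprc regions, the dense islands, the base-by-base comparison and the motifs were added after their values were seen. The members and lists were chosen with earlier results of these data known. Other genes of the pathway were not placed, since the annotation used is on GRCm38. Merging, ratios, intervals and motif search were tested on simulated data. Python 3.11.15, numpy 2.4.6, pandas 2.3.3, scipy 1.17.1 and matplotlib were used.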

Additional observations from a re-analysis of the deposited data

Results flagged for a closer look

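At 3 loci and 4 merged regions the read ratio of deficient over WT had opposite signs in the 2 conditions. The difference between the conditions was not tested. At Lck the log2 ratio over the islands that overlap the window, counted in full, was -0.16 in condition 1 and 0.19 in condition 2. Thy1, which is a single merged region, had -0.02 and 1.48, and the Ptprc locus 2.12 and -0.39. Among the other merged regions, the leftmost Cd3 region, starting at 44772001, had 0.99 and -0.09, and the Cd3 region starting at 44792201 had -0.12 and 0.48. The Ptprc region starting at 140031801 had 1.65 and -0.83. Opposite signs were thus found at 4 of the 7 member regions listed in all 4 libraries, against 46.1% of all such regions.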

How the results depend on the processing

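With 1 library per group no replicate could be left out. No paired analysis was possible because the labels give no replicate numbers and the results come from no test; the ratios are within conditions, and a model with genotype and condition as terms, which would use the conditions as replicates, was not fitted. Of 176 values recomputed, 146 stayed within their limits. The limit was the counting interval, for called length the width of the interval of the locus's reads, and for counts of regions 1.5 times. Some of the 146 could not move. Taking islands wholly inside the window changes nothing where no island crosses its edge, and whole merged regions change nothing where they add no island. For the values past their limits the cause was not tested except where stated.

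Taking only islands wholly inside a window leaves out the broad Lck and Thy1 islands that cross the edges. Thy1 in condition 2 then turned round, to -1.46 in reads and -1.17 in called length, both log2 ratios of deficient over WT. In condition 1 no Thy1 island was left in either genotype, so there was no ratio. Lck gave -1.80 in reads and -1.75 in length in condition 1, and -0.16 in reads, -0.19 in length and -0.05 in density in condition 2. Whole merged regions, an alternative added after the data were seen, gave -0.14 in reads and -0.09 in length for Lck in condition 2. Scaling by total island reads, which moves the median of all regions to -0.10 in condition 1 and -0.18 in condition 2, gave 0.20 for the Cd3 reads and 0.01 for the Lck reads in condition 2. In the upper 50% of each list, Cd3 in condition 2 gave 0.21 in reads and -0.02 in length, Lck in condition 1 gave 0.00 in reads and 0.17 in length, and Thy1 in condition 2 gave 1.35 in length; Ptprc gave no value in either condition. With lists of equal length, Cd3 in condition 1 gave 0.46 in length, and Ptprc in condition 1 gave no value.

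By count, lists of equal length gave 1 region listed in 3 libraries and 1 listed in 1 deficient and 1 WT library. The upper 50% and merging within 2 kb each gave 1 region of the second kind and 1 region listed in 1 library. Higher reads past the fold in condition 1 were found at 1 region when islands were merged within 2 kb and at 1 region with a fold of 2. Lower reads past the fold in condition 2 were found at 0 regions with a fold of 2. Per kb of called length, 1 region was higher in condition 1, 0 were higher in condition 2, 2 were lower in condition 1 and 0 were lower in condition 2. The count of regions past the fold in both conditions in 1 direction was 0 in every alternative run. The ratio of reads stayed above 0 at Cd3 and below 0 at Zap70 in both conditions and every alternative run. No island crosses an edge of these windows, so taking islands wholly inside or whole merged regions could not change these ratios. With lists of equal length the Zap70 ratios were also unchanged, at -0.39 and -0.24.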
